A study of Mus musculus with 18 samples.

Results

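Regulatory T cells (Treg) of the Nrp1+ subset, which the study's labels call tTreg, were compared between mice with and without CD28. The comparison takes 6 of the 18 RNA-seq libraries of the series, chosen by their titles: 3 of Nrp1+ Treg from CD28-/-Foxp3EGFP mice and 3 of Nrp1+ Treg from Foxp3EGFP mice. Both groups were C57BL/6 and were sorted from spleen, and both carry the Foxp3EGFP reporter, so neither is an unmodified strain. CD28 was missing from every cell of the CD28-/- mice and not from Treg alone, and the sources used here do not give the age, sex or number of mice behind each library. The other 12 libraries hold Nrp1-negative Treg (labelled pTreg) and conventional T cells (Tconv) of the same genotypes, 3 libraries a group, and are used here only for contrast. Replicates are numbered in the labels but not tied to individual mice, so every p-value below reflects the scatter among these libraries, which may be technical.

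CD28 is the main costimulatory receptor of T cells: it binds CD80 and CD86 on antigen-presenting cells and adds to the signal of the antigen receptor. In Treg it supports their development in the thymus, their survival and their proliferation. Treg that have met antigen can take on an effector state, marked by inhibitory receptors such as TIGIT, KLRG1 and LAG-3, by the costimulator ICOS and by suppressive cytokines, while resting Treg keep genes of naive T cells such as the IL-7 receptor. Nrp1, neuropilin 1, is a surface receptor used to part Treg made in the thymus from Treg that arise outside it.

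The values are FPKM, fragment counts scaled to transcript length and library size, 1 for each gene symbol and library, and read depth is unknown. The FPKM of all genes summed to between 514726 and 590016 in the 6 libraries, and 11512 to 11741 genes were at 1 FPKM or more. Spearman correlations between libraries were 0.95 to 0.975 within a genotype and 0.949 to 0.976 between genotypes, so the genotypes did not separate by overall correlation. MicroRNA and other small RNA symbols took 10.8% to 18.8% of the summed FPKM. Cd28 itself (chromosome 1, 60716800 to 60773359, GRCm38) was listed at 71.2, 76.3 and 80.6 FPKM in the CD28-deficient libraries and 57.5, 59.7 and 62.9 FPKM in the wild-type libraries. The CD28-deficient libraries were the higher ones and the groups did not overlap, with a difference of 0.34 ± 0.08 on the log2(FPKM + 1) scale (SE, limma adjusted p = 0.22). A gene-level value does not show whether the transcript is intact, so Cd28 does not check the genotype labels, and the libraries are named here as labelled. Foxp3, the factor that defines Treg, was at 101, 105 and 87.9 FPKM in the CD28-deficient libraries and 96.9, 112 and 137 FPKM in the wild-type libraries, and Nrp1 was at 61.5, 74.4 and 58.0 FPKM in the CD28-deficient libraries and 55.6, 69.3 and 83.5 FPKM in the wild-type libraries. Both were high in all 6 libraries, as the sort requires, and both overlapped between the groups.

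The library of CD28-deficient replicate 3 also carries transcripts of Tconv. A rule took every gene at 5 FPKM or more in all 3 wild-type Tconv libraries and under 1 FPKM in all 3 wild-type Nrp1+ Treg libraries and found 11 genes, among them Pdlim4, Pde3b, Slc16a5, Ggt5, Klrd1 and Lypd6b. Their FPKM summed to 3.90, 5.08 and 41.6 in CD28-deficient replicates 1, 2 and 3, and to 4.70, 4.92 and 3.70 in the wild-type replicates. All 11 were highest in CD28-deficient replicate 3, where their sum reached 22.8% of the wild-type Tconv mean. None of the 11 passed the expression filter of the main test, and none is among the genes called below. The rule takes only genes under 1 FPKM in wild-type Nrp1+ Treg, which could hardly pass that filter. Their absence from the calls says nothing on genes that Tconv and Treg both express. Because 1 library stands apart, the called genes and the gene lists are given with and without it.

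**Figure D1:**
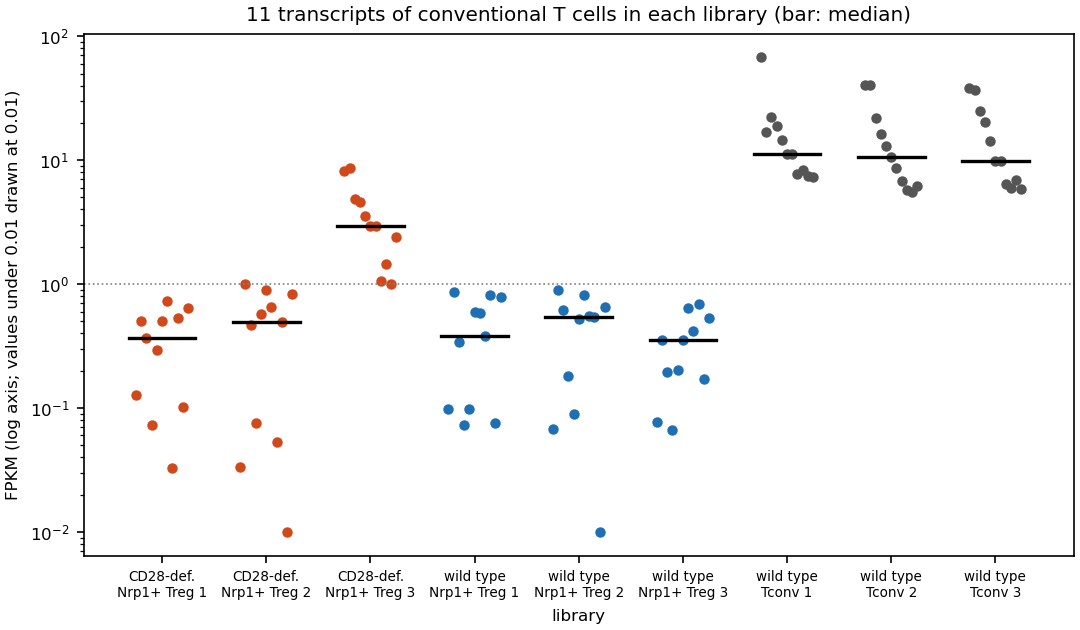
FPKM (log axis) of the 11 Tconv transcripts, 1 point per gene, in each Nrp1+ Treg library and in the 3 wild-type Tconv libraries; bars are medians and the dotted line is 1 FPKM. CD28-deficient replicate 3 sits between the other Treg libraries and Tconv, with a summed FPKM of 41.6 against 3.70 to 5.08 in the other 5 Treg libraries.

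Most markers of other cells were low. The B cell markers Ms4a1, Pax5 and Ebf1 were under 1 FPKM in all 6 libraries, and the summed level of the B cell marker list was 5.54 to 6.10 FPKM in CD28-deficient and 10.6 to 12.4 FPKM in wild-type libraries. Most of that sum was Cd79b, one of the genes called below, at 4.62 ± 0.293 against 9.88 ± 0.0262 FPKM. Cd79a was at 0.571 to 2.27 FPKM across the 6 libraries, and its groups overlapped. Plasma cell markers summed to at most 0.681 FPKM. Of 9 myeloid and dendritic cell markers, 6 were under 1 FPKM throughout, and the 9 summed to 10.2 to 43.8 FPKM in CD28-deficient and 19.9 to 31.5 FPKM in wild-type libraries. Lyz2, S100a8 and S100a9 were higher, at 2.53 to 17.2 FPKM across the 6 libraries. The 4 markers of NK, NKT and gamma-delta T cells summed to 0.233 to 0.385 FPKM in CD28-deficient and 1.17 to 1.30 FPKM in wild-type libraries. That gap was Klrb1c alone, another of the called genes, at 0.234 ± 0.0109 against 1.09 ± 0.0155 FPKM, while Ncr1, Zbtb16 and Sox13 were under 1 FPKM in all 6 libraries. No marker of these lists was at 0 in all 6 libraries. The 8 Treg markers summed to 704 to 831 FPKM in CD28-deficient and 903 to 1098 FPKM in wild-type libraries, and none of the 8 was called.

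In CD28-deficient Nrp1+ Treg, a small set of genes, with several inhibitory receptors and effector Treg genes among them, was lower than in wild type. Of 11728 genes tested, 29 were called at a limma adjusted p under 0.05 (0.247%), of which 25 fell (0.213%) and 4 rose (0.0341%). Counts of calls in the gene lists below are to be read against these shares. Some called genes belong to several lists and are counted in each. The genes that fell include the inhibitory receptor genes Klrg1, Tigit, Lag3, Lilrb4 and Cd22, the paired receptor gene Gp49a, the costimulator Icos, the chemokine receptor Ccr8 and the transcription factor genes Tox2 and Cebpa. Il7r, the receptor chain for the survival cytokine IL-7, and Igsf3 rose, together with the microRNA loci Mir3058 and Mir1247. Changes are differences of log2(FPKM + 1), CD28-deficient minus wild type, with their SE over 3 libraries a group, and they understate the change of genes with low FPKM. In bulk RNA, fewer cells that express a gene and less RNA of it per cell cannot be told apart. The median change over all tested genes was -0.05, and 1085 genes (9.25%) were lower and 146 (1.24%) higher at an unadjusted p under 0.05. In 1816 genes (15.5%) every CD28-deficient library was below every wild-type library, and in 287 (2.45%) every one was above.

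The number of calls depends on which libraries are in the fit. Values given below as "without replicate 3" are changes refitted with that CD28-deficient library left out. In that fit 1 of 11620 genes was called (0.00861%), the microRNA locus Mir1894, and 775 genes were at an unadjusted p under 0.05 (6.67%). Of the 29 genes, 26 could still be fitted, and all 26 kept their direction and an unadjusted p under 0.05, with adjusted p between 0.0636 and 0.272. Without CD28-deficient replicate 2, whose Tconv transcripts summed to 5.08 FPKM, limma called 0 genes and 800 were at an unadjusted p under 0.05. Leaving out wild-type replicate 1 instead gave 41 calls, 21 of them among the 29. Among the 25 genes that fell, the lowest CD28-deficient library was replicate 3 for 12 genes, replicate 1 for 6 and replicate 2 for 7. With each library rescaled to an equal FPKM sum over genes other than small RNA, 9 genes were called, 6 lower and 3 higher, and the median change of all genes moved from -0.05 to 0.08. List medians given below as rescaled, or with small RNA left out of the scaling, come from that fit and are to be read against 0.08.

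**Figure D2:**
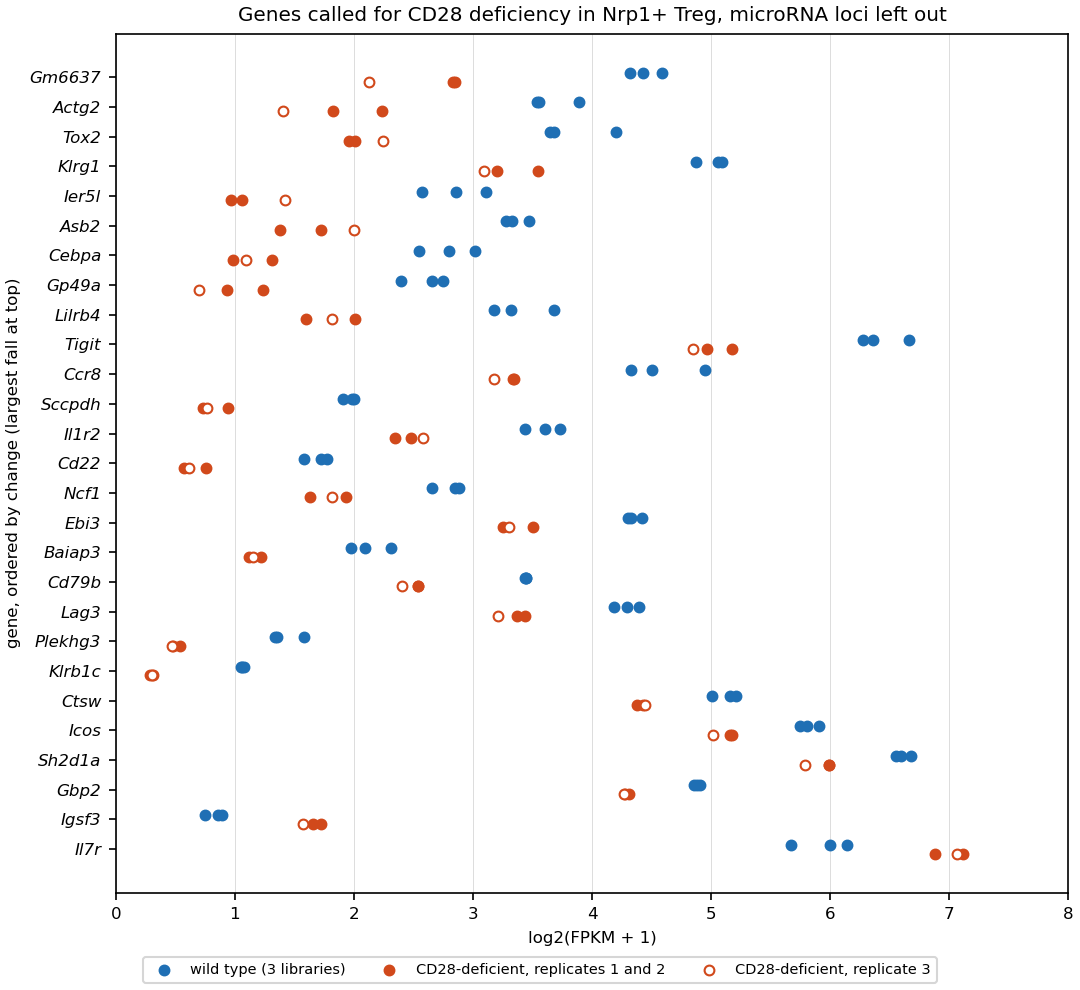
log2(FPKM + 1) of the 27 called genes other than microRNA loci in each library, ordered by change; blue points are wild type, filled red points CD28-deficient replicates 1 and 2, and open red points CD28-deficient replicate 3. For each of the 27 genes the 2 groups do not overlap, and the open points lie among or beside the filled ones.

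Inhibitory receptors gave the largest share of calls of any list examined. The lists were chosen with earlier results of these data known, so this ranking is a description and not a test. Of 14 tested genes of the list 6 fell and 0 rose, against 0.213% of all tested genes that fell, and 6 more listed genes were below the expression filter. One of the 6 is Gp49a, whose product lacks the inhibitory motifs of the Lilrb4 product and which shares sequence with Lilrb4. Leaving it out, 5 of 13 fell. The median change of the 14 was -0.76 (-0.78 without CD28-deficient replicate 3, -0.64 rescaled), that of the 13 was -0.68, and 11 of the 14 were below 0. Klrg1 encodes a lectin receptor of differentiated effector lymphocytes that binds cadherins, and was at 10.7, 8.21 and 7.53 FPKM in the CD28-deficient libraries and 32.3, 28.2 and 33.1 FPKM in the wild-type libraries. Every CD28-deficient library was at less than any wild-type library, and Klrg1 fell by 1.73 ± 0.14 (adjusted p = 0.018; -1.63 without replicate 3). Tigit, whose product competes with CD226 for the ligand CD155, was at 30.2, 35.1 and 27.8 FPKM in the CD28-deficient libraries and 76.6, 81.1 and 100.03 FPKM in the wild-type libraries. The groups did not overlap and replicate 3 was the lowest of its group, and Tigit fell by 1.44 ± 0.13 (adjusted p = 0.0273; -1.36 without replicate 3). Lag3, a CD4-related receptor that binds MHC class II, was at 9.36, 9.81 and 8.27 FPKM in the CD28-deficient libraries and 18.6, 17.2 and 19.97 FPKM in the wild-type libraries. Its 3 CD28-deficient values lie close together and below all wild-type values, and it fell by 0.95 ± 0.11 (adjusted p = 0.0288; -0.89 without replicate 3).

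The paired immunoglobulin-like receptor genes Lilrb4, whose product is inhibitory, and Gp49a lie side by side on chromosome 10, and both fell. Lilrb4 was at 3.03, 2.03 and 2.52 FPKM in the CD28-deficient libraries and 8.06, 8.96 and 11.8 FPKM in the wild-type libraries, and fell by 1.58 ± 0.17 (adjusted p = 0.0273; -1.58 without replicate 3). Gp49a was at 1.35, 0.914 and 0.626 FPKM in the CD28-deficient libraries and 5.71, 4.26 and 5.30 FPKM in the wild-type libraries, and fell by 1.64 ± 0.17 (adjusted p = 0.0273; -1.51 without replicate 3). The 2 genes share 441 of their 50-base stretches of transcript, 28.4% of those of Lilrb4 and 24.1% of those of Gp49a, so reads can be split between them and the 2 values are not independent. Cd22, a sialic acid binding inhibitory receptor best known from B cells, was at 0.694, 0.491 and 0.532 FPKM in the CD28-deficient libraries and 2.41, 1.99 and 2.30 FPKM in the wild-type libraries, and fell by 1.04 ± 0.12 (adjusted p = 0.0288; -1.02 without replicate 3). It was under 1 FPKM in all CD28-deficient libraries. Of the B cell markers Cd79b was also lower, while Ms4a1, Pax5 and Ebf1 stayed under 1 FPKM in all 6 libraries. Cd79a, at 0.571 to 2.27 FPKM, overlapped between the groups. The part of B cells in the change of Cd22 was not tested.

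Other inhibitory receptor genes did not pass the threshold. Pdcd1, which encodes PD-1, was at 23.1, 23.1 and 19.0 FPKM in the CD28-deficient libraries and 41.6, 51.2 and 72.5 FPKM in the wild-type libraries, a difference of -1.27 ± 0.20 (adjusted p = 0.089) with no overlap of the groups, as in 15.5% of all genes. Cd72 was at 8.44, 9.59 and 9.61 FPKM against 15.7, 15.4 and 14.9 FPKM (difference -0.68 ± 0.10, adjusted p = 0.0614), and Cd160 at 2.15, 2.50 and 2.32 FPKM against 5.09, 4.14 and 5.78 FPKM (difference -0.84 ± 0.13, adjusted p = 0.0912). Ctla4, whose product competes with CD28 for CD80 and CD86, was at 125, 139 and 116 FPKM in the CD28-deficient libraries and 195, 145 and 165 FPKM in the wild-type libraries. Its groups did not overlap, and the difference was -0.40 ± 0.13 (adjusted p = 0.332).

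Next to Klrg1 on chromosome 6 lies the pseudogene model Gm6637, which had the largest fall of the 29 called genes. It was at 6.19, 6.12 and 3.37 FPKM in the CD28-deficient libraries and 23.0, 19.0 and 20.5 FPKM in the wild-type libraries, and fell by 1.84 ± 0.21 (adjusted p = 0.0288; -1.60 without replicate 3). Its RefSeq span begins 11.2 kb beyond the end of Klrg1 (122282882 on GRCm38), upstream of the minus-strand Klrg1 gene. Gm6637 is an unnamed model that the rule for named genes leaves out, and it is described because its value was seen. The sources used here do not give the strand setting of the authors' counting.

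Costimulatory receptors showed 1 call. Icos, a CD28-family receptor that binds ICOS ligand, was at 34.7, 35.1 and 31.3 FPKM in the CD28-deficient libraries and 52.7, 54.9 and 58.9 FPKM in the wild-type libraries. All CD28-deficient libraries were below all wild-type libraries, and Icos fell by 0.70 ± 0.09 (adjusted p = 0.0462; -0.65 without replicate 3). It was the call among 10 tested genes of the CD28 family and the B7 ligands, whose median change was -0.22 (-0.20 without replicate 3, -0.11 rescaled). Cd86, a ligand of CD28, was at 6.39, 6.57 and 6.05 FPKM against 9.50, 10.9 and 14.9 FPKM (difference -0.78 ± 0.16, adjusted p = 0.157).

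None of the 18 tested TNF receptor family costimulators was called by limma, while 6 were lower and 1 higher at an unadjusted p under 0.05, against 9.25% and 1.24% of all genes. The list's median was -0.10 as deposited (-0.15 without replicate 3). With small RNA left out of the scaling it was 0.04, against 0.08 for all genes. Tnfrsf9 (4-1BB) was at 50.5, 46.2 and 41.7 FPKM against 74.5, 74.4 and 93.3 FPKM with a difference of -0.79 ± 0.12 (adjusted p = 0.0841). Tnfrsf4 (OX40) was at 96.5, 93.2 and 92.4 FPKM against 133, 146 and 186 FPKM with a difference of -0.70 ± 0.13 (adjusted p = 0.133). Tnfrsf18 (GITR) was at 147, 142 and 128 FPKM against 203, 189.8 and 217 FPKM with a difference of -0.54 ± 0.09 (adjusted p = 0.106). In each of these 3 genes every CD28-deficient library was below every wild-type library, which was so for 15.5% of all genes. Tnfrsf8 (CD30) differed by -1.04 ± 0.21 (adjusted p = 0.157).

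Of 30 effector Treg genes, all of them tested, 5 fell (Klrg1, Ccr8, Ebi3, Lag3 and Icos) and 0 rose. Of all tested genes 0.213% fell. The median change of the list was -0.70 (-0.65 without replicate 3), 28 of 30 genes were below 0, and 19 were lower at an unadjusted p under 0.05, against 9.25% of all genes. Its median was -0.61 after quantile normalization and -0.56 with small RNA left out of the scaling. Ccr8, a chemokine receptor of activated Treg, was at 9.18, 9.10 and 8.03 FPKM in the CD28-deficient libraries and 21.6, 19.1 and 29.9 FPKM in the wild-type libraries. The groups did not overlap, and Ccr8 fell by 1.31 ± 0.17 (adjusted p = 0.0472; -1.25 without replicate 3). Ebi3, the shared subunit of the cytokines IL-27 and IL-35, was at 10.3, 8.54 and 8.86 FPKM in the CD28-deficient libraries and 19.0, 18.7 and 20.4 FPKM in the wild-type libraries. Within each group its values were close, and it fell by 0.997 ± 0.10 (adjusted p = 0.0273; -0.97 without replicate 3). Ebi3 was also the call among 23 tested NF-kB subunits and targets, whose median was -0.18 (-0.12 without replicate 3, -0.04 rescaled).

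Several well-known effector Treg genes lay below wild type without passing the threshold. Il10, a suppressive cytokine, was at 1.06, 1.91 and 0.815 FPKM in the CD28-deficient libraries and 6.13, 3.10 and 4.39 FPKM in the wild-type libraries, a difference of -1.29 ± 0.25 (adjusted p = 0.148). The wild-type libraries ranged widely but all were above the CD28-deficient ones. Prdm1, which encodes the factor BLIMP-1, was at 1.85, 2.32 and 1.82 FPKM against 3.24, 3.86 and 4.53 FPKM (difference -0.70 ± 0.14, adjusted p = 0.15). Maf was at 29.6, 31.0 and 20.9 FPKM against 47.5, 52.1 and 48.6 FPKM (difference -0.86 ± 0.15, adjusted p = 0.116), and Batf, an AP-1 family factor, at 43.3, 43.0 and 38.5 FPKM against 74.4, 60.2 and 79.2 FPKM (difference -0.75 ± 0.12, adjusted p = 0.0912). Entpd1, the ectoenzyme CD39 that degrades extracellular ATP, was at 4.41, 5.12 and 4.63 FPKM against 7.70, 7.94 and 9.73 FPKM (difference -0.72 ± 0.12, adjusted p = 0.114). None of these 5 genes overlapped between the groups, and 15.5% of all genes were lower without overlap. Gzmb, a granule protease, was at 1.42, 0.829 and 0.527 FPKM against 3.91, 2.53 and 1.87 FPKM with no overlap and a difference of -0.96 ± 0.24 (adjusted p = 0.228).

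Il1r2, a decoy receptor that binds IL-1 without signalling, was at 4.58, 4.08 and 4.96 FPKM in the CD28-deficient libraries and 11.1, 9.85 and 12.2 FPKM in the wild-type libraries. It fell by 1.12 ± 0.12 (adjusted p = 0.0273; -1.18 without replicate 3), with no overlap. Lif, a cytokine of the IL-6 family, was just above the threshold at 1.24, 1.12 and 1.26 FPKM against 2.97, 2.73 and 3.52 FPKM (difference -0.88 ± 0.12, adjusted p = 0.0509). Among 23 tested chemokine receptor and homing genes Ccr8 was the call, and the list's median was -0.09 (-0.07 without replicate 3). With small RNA left out of the scaling that median was 0.05, against 0.08 for all genes.

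Transcription factors and signalling proteins made up another group. Tox2, a high mobility group factor known from follicular helper T cells, was at 2.90, 3.03 and 3.73 FPKM in the CD28-deficient libraries and 11.8, 11.5 and 17.4 FPKM in the wild-type libraries. The lowest wild-type library was well above the highest CD28-deficient one, and Tox2 fell by 1.77 ± 0.18 (adjusted p = 0.0273; -1.86 without replicate 3). Cebpa, a factor known best from myeloid cells, was at 1.49, 0.984 and 1.13 FPKM in the CD28-deficient libraries and 5.94, 4.85 and 7.08 FPKM in the wild-type libraries, and fell by 1.65 ± 0.16 (adjusted p = 0.0273; -1.63 without replicate 3). Tox2 and Cebpa were the calls among 31 tested lineage and effector transcription factors, against 0.213% of all genes that fell. The median change of that list was -0.20 (-0.15 without replicate 3, -0.07 rescaled). Of 9 myeloid and dendritic markers 6 were under 1 FPKM in all 6 libraries, while Lyz2, S100a8 and S100a9 were at 2.53 to 17.2 FPKM. The part of such cells in the change of Cebpa was not tested. Sh2d1a encodes SAP, the adaptor of the SLAM family receptors, and was at 62.5, 62.7 and 54.3 FPKM in the CD28-deficient libraries and 102, 95.6 and 92.9 FPKM in the wild-type libraries. It fell by 0.69 ± 0.09 (adjusted p = 0.0476; -0.62 without replicate 3), and the groups did not overlap. With Tox2, Icos and Sh2d1a, 3 of 16 tested follicular helper T cell genes fell and 0 rose, against 0.213% of all genes that fell. The list median was -0.44 (-0.43 without replicate 3, -0.30 rescaled).

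Ier5l was the call among 20 tested immediate early genes, at 1.09, 0.955 and 1.68 FPKM in the CD28-deficient libraries and 7.61, 4.95 and 6.25 FPKM in the wild-type libraries, and fell by 1.69 ± 0.18 (adjusted p = 0.0273; -1.83 without replicate 3). The list's median was -0.28 (-0.30 without replicate 3, -0.13 rescaled), with 8 genes lower at an unadjusted p under 0.05, against 9.25% of all genes. Nr4a1, an orphan nuclear receptor induced by antigen receptor signals, was at 56.0, 71.9 and 63.7 FPKM in the CD28-deficient libraries and 175, 71.4 and 109 FPKM in the wild-type libraries. Wild-type replicate 1 was far above the rest and the groups overlapped, with a difference of -0.80 ± 0.30 (adjusted p = 0.405). Egr2, another early gene of the antigen receptor, was at 13.3, 12.0 and 13.6 FPKM against 18.2, 20.4 and 28.2 FPKM (difference -0.72 ± 0.16, adjusted p = 0.186). Of 37 tested components of antigen receptor and CD28 signalling, 0 were called by limma, 4 (10.8%) were lower and 0 higher at an unadjusted p under 0.05, near the 9.25% of all genes that were lower, and the median change was -0.003 (-0.03 without replicate 3, and 0.14 with small RNA left out of the scaling).

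Asb2, a substrate adaptor of a ubiquitin ligase, was at 1.61, 2.31 and 2.99 FPKM in the CD28-deficient libraries and 8.71, 9.06 and 10.1 FPKM in the wild-type libraries, and fell by 1.66 ± 0.17 (adjusted p = 0.0273; -1.81 without replicate 3). Actg2, a smooth muscle actin, was at 3.72, 2.55 and 1.65 FPKM in the CD28-deficient libraries and 10.6, 10.7 and 13.8 FPKM in the wild-type libraries, and fell by 1.83 ± 0.22 (adjusted p = 0.0423; -1.62 without replicate 3). No 50-base stretch of the Actg2 transcripts is shared with the other 5 actin genes compared. Ctsw, a cathepsin of cytotoxic lymphocytes, was at 19.8, 20.5 and 20.7 FPKM in the CD28-deficient libraries and 31.2, 34.8 and 36.0 FPKM in the wild-type libraries, and fell by 0.71 ± 0.09 (adjusted p = 0.0462; -0.72 without replicate 3). Ctsw overlaps Fibp on the opposite strand, and since the strand setting is not given, reads of the pair cannot be told apart. Gbp2, an interferon-induced GTPase, was at 18.4, 18.8 and 18.3 FPKM in the CD28-deficient libraries and 29.1, 27.9 and 28.5 FPKM in the wild-type libraries, and fell by 0.60 ± 0.08 (adjusted p = 0.0476; -0.59 without replicate 3), the call among 24 tested interferon response genes (median -0.18, -0.19 without replicate 3 and -0.06 rescaled).

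The remaining genes that fell had low FPKM or are better known from other cells. Cd79b, a chain of the B cell receptor complex, was at 4.79, 4.79 and 4.29 FPKM in the CD28-deficient libraries and 9.90, 9.89 and 9.85 FPKM in the wild-type libraries, and fell by 0.95 ± 0.10 (adjusted p = 0.0273; -0.91 without replicate 3). Cd79b and Cd22 were the calls among 6 tested B cell markers, while Ms4a1, Pax5 and Ebf1 stayed under 1 FPKM. Cd79a, another B cell marker, was tested and not called. Its values were 1.06, 0.571 and 1.07 FPKM in the CD28-deficient libraries and 0.634, 0.968 and 2.27 FPKM in the wild-type libraries. Klrb1c, the NK1.1 receptor, was at 0.223, 0.245 and 0.234 FPKM against 1.08, 1.09 and 1.11 FPKM, and fell by 0.76 ± 0.10 (adjusted p = 0.0476; -0.76 without replicate 3). Ncf1, a subunit of the phagocyte NADPH oxidase, was at 2.82, 2.10 and 2.52 FPKM against 5.30, 6.37 and 6.18 FPKM, and fell by 0.9998 ± 0.13 (adjusted p = 0.0475; -1.01 without replicate 3); it overlaps Gtf2ird2 on the opposite strand. Sccpdh, Baiap3 and Plekhg3 fell by 1.15 ± 0.11, 0.96 ± 0.13 and 0.92 ± 0.12 (adjusted p = 0.0273, 0.0476 and 0.0462; -1.13, -0.95 and -0.91 without replicate 3). Baiap3 overlaps Tsr3, and Plekhg3 overlaps Sptb, both on the opposite strand.

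The core Treg programme showed 1 call. Of 30 tested Treg signature genes Tigit fell and 0 rose. Of the 30, 14 were lower and 0 higher at an unadjusted p under 0.05 against 9.25% and 1.24% of all genes, 14 were lower without overlap against 15.5%, and 26 were below 0 against 62.6%. The median was -0.36 (-0.24 without replicate 3, -0.21 rescaled). After Tigit, the members with the lowest p were Tnfrsf9, Tnfrsf18, Entpd1 and Tnfrsf4, with the values given above. Folr4, a folate receptor family gene known from Treg, was at 366, 371 and 334 FPKM against 473, 516 and 611 FPKM without overlap (difference -0.57 ± 0.11, adjusted p = 0.15). Ikzf2, which encodes the Treg factor Helios, was at 96.5, 120.2 and 96.1 FPKM in the CD28-deficient libraries and 79.8, 126 and 141 FPKM in the wild-type libraries. The groups overlapped, with a difference of -0.12 ± 0.21 (adjusted p = 0.929). Il2ra, the high-affinity IL-2 receptor chain CD25, was at 94.2, 99.8 and 79.8 FPKM in the CD28-deficient libraries and 88.5, 117 and 131 FPKM in the wild-type libraries, which also overlapped (difference -0.28 ± 0.16, adjusted p = 0.613). Bcl2, a survival factor, was at 37.9, 43.4 and 35.4 FPKM against 28.9, 51.8 and 48.2 FPKM with a difference of -0.10 ± 0.22 (adjusted p = 0.943), and Bcl2l1, which encodes BCL-XL and is a known target of CD28 signals, was at 13.5, 13.3 and 12.1 FPKM against 17.8, 17.3 and 19.9 FPKM with a difference of -0.46 ± 0.10 (adjusted p = 0.163). None of 22 tested genes of the BCL2 family and death receptors was called by limma, with 7 lower and 2 higher at an unadjusted p under 0.05, against 9.25% and 1.24% of all genes, and a median of -0.22 (-0.21 without replicate 3, -0.09 rescaled).

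No cell cycle gene passed the threshold. None of the 30 tested was called by limma, 16 were lower and 0 higher at an unadjusted p under 0.05 against 9.25% and 1.24% of all genes, and 29 of 30 were below 0 against 62.6%. The median was -0.31 with and without replicate 3, -0.28 after quantile normalization and -0.22 with small RNA left out of the scaling. Mki67, a protein of dividing cells, was at 2.07, 2.25 and 2.11 FPKM in the CD28-deficient libraries and 3.64, 3.38 and 3.66 FPKM in the wild-type libraries. The groups did not overlap, and the difference was -0.54 ± 0.10 (adjusted p = 0.142). Rrm2, a subunit of ribonucleotide reductase, was at 3.64, 3.23 and 3.31 FPKM against 7.68, 5.39 and 7.44 FPKM (difference -0.82 ± 0.15, adjusted p = 0.116).

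Genes of metabolism and translation gave no calls, and their list medians moved with the scaling, as did the median of all genes. None of 18 glycolysis, 26 oxidative phosphorylation or 30 cytosolic ribosomal protein genes was called by limma, while 8, 10 and 10 of them were lower at an unadjusted p under 0.05 (44.4%, 38.5% and 33.3%, against 9.25% of all genes). The medians were -0.25, -0.22 and -0.24 as deposited, -0.25, -0.21 and -0.21 without replicate 3, -0.11, -0.12 and -0.06 after quantile normalization, and -0.10, -0.08 and -0.09 with small RNA left out of the scaling. In the same order of settings, the medians of all tested genes were -0.05, -0.07, 0.0055 and 0.08. Gapdh, a glycolytic enzyme, was at 323, 358 and 309.9 FPKM in the CD28-deficient libraries and 482, 421 and 455 FPKM in the wild-type libraries (difference -0.45 ± 0.09, adjusted p = 0.16). Slc7a10, an amino acid transporter, was at 3.08, 2.69 and 2.30 FPKM against 6.54, 5.68 and 11.05 FPKM with no overlap (difference -1.20 ± 0.23, adjusted p = 0.141).

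**Figure D3:**
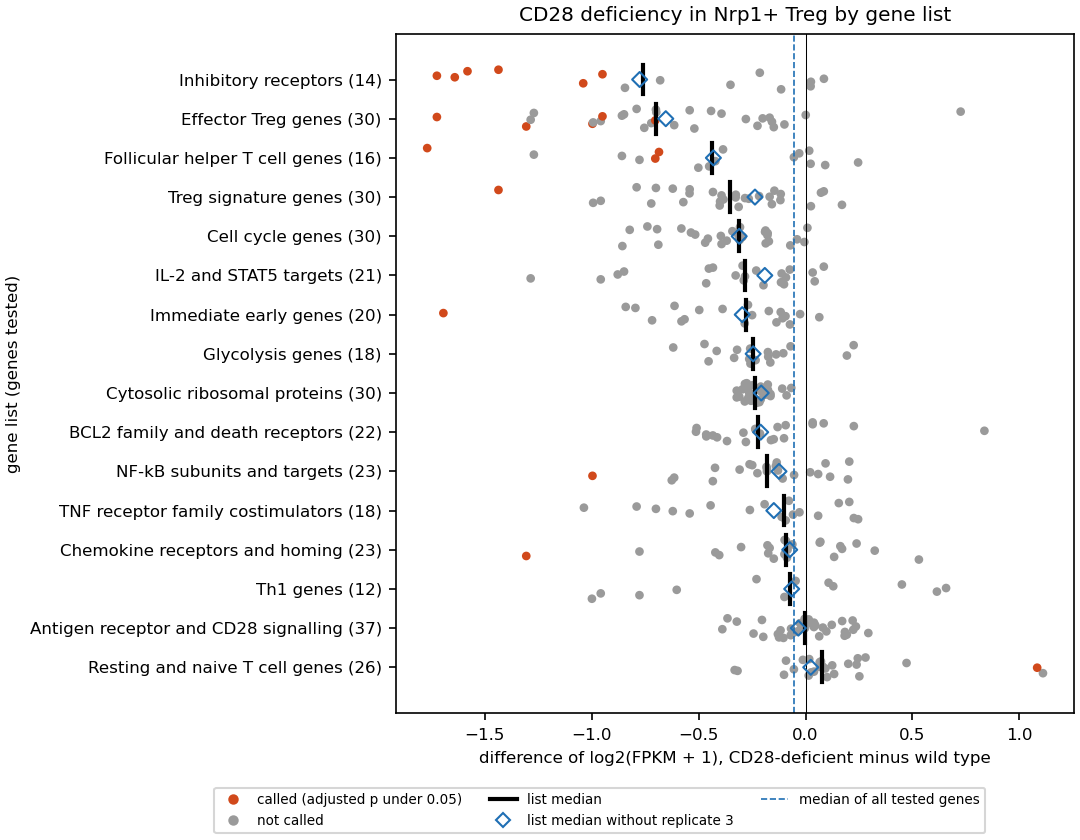
Difference of log2(FPKM + 1), CD28-deficient minus wild type, for each tested gene of 16 lists (1 point per gene, red where called); black bars are list medians, blue diamonds the medians without CD28-deficient replicate 3, and the dashed line the median of all genes. Inhibitory receptors and effector Treg genes have the lowest medians (-0.76 and -0.70), while the medians of TNF receptor family, chemokine receptor, Th1 and antigen receptor genes lie near 0 and turn above it with small RNA left out of the scaling. In that scaling the median of all genes is 0.08.

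Il7r and Igsf3 were the protein-coding genes that rose. Il7r was at 117, 138 and 133 FPKM in the CD28-deficient libraries and 49.9, 63.0 and 69.6 FPKM in the wild-type libraries, and every CD28-deficient library was above every wild-type library. Il7r rose by 1.08 ± 0.14 (adjusted p = 0.0462; 1.06 without replicate 3). It was the call among 26 tested genes of resting and naive T cells, of which 20 were above 0, with a median of 0.08 (0.02 without replicate 3, 0.22 rescaled). Of the 26, 6 were below 0 with all 6 libraries and 10 without replicate 3, the library with Tconv transcripts. Of all tested genes 62.6% were below 0 with all 6 libraries. Dapl1, a gene of naive T cells, was at 3.73, 6.74 and 28.4 FPKM in the CD28-deficient libraries and 6.55, 4.66 and 1.5003 FPKM in the wild-type libraries. Its high value came from replicate 3, the library with Tconv transcripts, and the difference was 1.11 ± 0.70 (adjusted p = 0.661; 0.35 without replicate 3). Igfbp4, another such gene, was also highest in replicate 3, at 19.2, 20.9 and 60.0 FPKM against 33.0, 46.8 and 32.1 FPKM (difference -0.33 ± 0.41, adjusted p = 0.873). Without replicate 3 the difference of Igfbp4 was -0.84 (limma unadjusted p = 0.00305, adjusted p = 0.517). Igsf3, an immunoglobulin superfamily membrane protein, was at 2.15, 2.29 and 1.98 FPKM in the CD28-deficient libraries and 0.685, 0.809 and 0.855 FPKM in the wild-type libraries, and rose by 0.82 ± 0.11 (adjusted p = 0.0498). Without replicate 3 Igsf3 did not pass the expression filter, and its difference of means was 0.85. Il18r1, a chain of the IL-18 receptor, was at 47.3, 43.8 and 37.9 FPKM against 23.0, 28.0 and 29.8 FPKM, without overlap (difference 0.66 ± 0.13, adjusted p = 0.148).

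The microRNA loci Mir3058 and Mir1247 completed the genes that rose. MicroRNAs are short RNAs that pair with messenger RNAs mainly through their seed, bases 2 to 8. The mature sequences of both loci (RefSeq, GRCm38.p6, 5′ to 3′, the seed in capitals) are shown because the 2 loci hold no seed in common:
mmu-miR-3058-5p: uCAGCCACggcuuaccuggaaga
mmu-miR-3058-3p: uUCCUGUCagccgugggugcc
mmu-miR-1247-5p: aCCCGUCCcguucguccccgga
mmu-miR-1247-3p: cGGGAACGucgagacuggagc

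Mir3058 (chromosome 10, 95559231 to 95559321, minus strand) lies within Nudt4 and was listed at 26.2, 21.0 and 22.3 FPKM in the CD28-deficient libraries and at 0 in all wild-type libraries. It was also listed at 27.0 FPKM in CD28-deficient Nrp1-negative Treg replicate 3 and at 26.3 FPKM in CD28-deficient Tconv replicate 3. Mir1247 (chromosome 12, 110278048 to 110278129, minus strand) lies within the long non-coding RNA gene Dio3os and was listed at 39.5, 31.8 and 28.0 FPKM in the CD28-deficient libraries and at 0 in the other 15 libraries of the series. The libraries were not made for small RNA, an FPKM over so short a locus can rest on few reads, and a value listed at 0 can be a failed estimate, so no fold is given. Another locus, Mir1894, shows how such values scatter: it was at 0 in CD28-deficient replicates 1 and 2, at 247.6 FPKM in replicate 3, and at 118.2, 126.1 and 95.0 FPKM in wild type.

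Promoter windows were searched for 4 motifs linked to antigen receptor, CD28 and Treg transcription factors, on both strands. RefSeq windows of 250 bases before to 50 after the start were held for 17 of the 29 called genes, 15 of them genes that fell. The AP-1 motif TGANTCA was in the window of 1 of the 15 (Gbp2) and in 5.58% of 8616 tested genes with a window. The forkhead motif TGTTTAC was in 1 of 15 (Gp49a) and in 3.17% of tested genes. The NFAT motif TGGAAAA and the NF-kB motif (GGGA, any base, TTTCC) were in 0 of 15, and in 5.52% and 0.487% of tested genes. The matched stretches, with the motif in capitals on the plus strand of GRCm38.p6, are printed with 30 bases on each side:
Gbp2 (chr3:142620531-142620597, match 102 bases before the start): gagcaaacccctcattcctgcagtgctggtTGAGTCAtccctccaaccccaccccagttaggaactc
Gp49a (chr10:51480506-51480572, match 76 bases before the start): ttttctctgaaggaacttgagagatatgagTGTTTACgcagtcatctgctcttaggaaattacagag

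The genes that fell in Nrp1+ Treg were also below 0 in CD28-deficient Nrp1-negative Treg, a comparison that shares no library with the main one. In a limma model of all 18 libraries, all 25 were below 0 in Nrp1-negative Treg, where 16.3% of all 12265 genes were below 0. Of the 25, 12 were called there, where 25 genes in all were called (0.204%): Gm6637, Klrg1, Asb2, Cebpa, Gp49a, Lilrb4, Tigit, Sccpdh, Cd22, Baiap3, Lag3 and Plekhg3. At an unadjusted p under 0.05, 23 of the 25 were lower there, and 4.44% of all genes passed in either direction. Their median effect was -1.12, against 0.19 for all genes. Igsf3 and Il7r were above 0 in both Treg subsets, and Igsf3 was called in both.

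The libraries used for contrast hold some that stand apart. The 8 Treg markers summed to 40.9 and 42.6 FPKM in CD28-deficient Tconv replicates 1 and 2 but to 208 FPKM in replicate 3. In wild-type Tconv they summed to 123.3, 77.0 and 71.4 FPKM in replicates 1, 2 and 3. Foxp3 itself was at 0.0670, 0.205 and 21.1 FPKM in CD28-deficient Tconv replicates 1, 2 and 3. In wild-type Nrp1-negative Treg the markers summed to 428.6 FPKM in replicate 1 and to 709 and 672 FPKM in replicates 2 and 3. Results in these populations are therefore also given without CD28-deficient Tconv replicate 3. A model of 15 libraries also leaves out replicate 1 of wild-type Nrp1-negative Treg and of wild-type Tconv. It keeps CD28-deficient Nrp1+ Treg replicate 3, which carries Tconv transcripts, so libraries were dropped only from the populations used for contrast. In the 15-library model all 25 genes were again below 0 in Nrp1-negative Treg, where 65.6% of all genes were, and 22 of them were called, beside 0.984% of all genes. Without CD28-deficient Tconv replicate 3 alone, 14 were called there, beside 0.27% of all genes.

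In Tconv, 23 of the 25 genes were below 0, where 78.1% of all genes were, and 7 were called (Tox2, Asb2, Cebpa, Cd22, Baiap3, Lag3 and Ctsw) beside 0.791% of all genes. At an unadjusted p under 0.05, 18 of the 25 were lower, and 9.66% of all genes passed in either direction. The median effect of the 25 was -0.64, against -0.16 for all genes. Without CD28-deficient Tconv replicate 3, all 25 were below 0, where 79.7% of all genes were, and 11 were called beside 1.26% of all genes, with a median of -0.93. The 15-library model called 14 beside 2.49%. Replicate 3 was the highest of its group for Klrg1, at 0.241, 0 and 3.22 FPKM, and for Tigit, at 0.726, 1.0002 and 7.90 FPKM in CD28-deficient Tconv. Il1r2 and Cd79b were the genes above 0 with all libraries. Il1r2 was at 0.0603, 0.0719 and 1.36 FPKM in CD28-deficient and 0.366, 0.118 and 0.267 FPKM in wild-type Tconv, so its sign rests on replicate 3, and it was -0.23 without that library. Cd79b moved from 0.18 to -0.05. Whether the genotypes' libraries of different populations came from the same mice is not given in the labels.

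**Figure D4:**
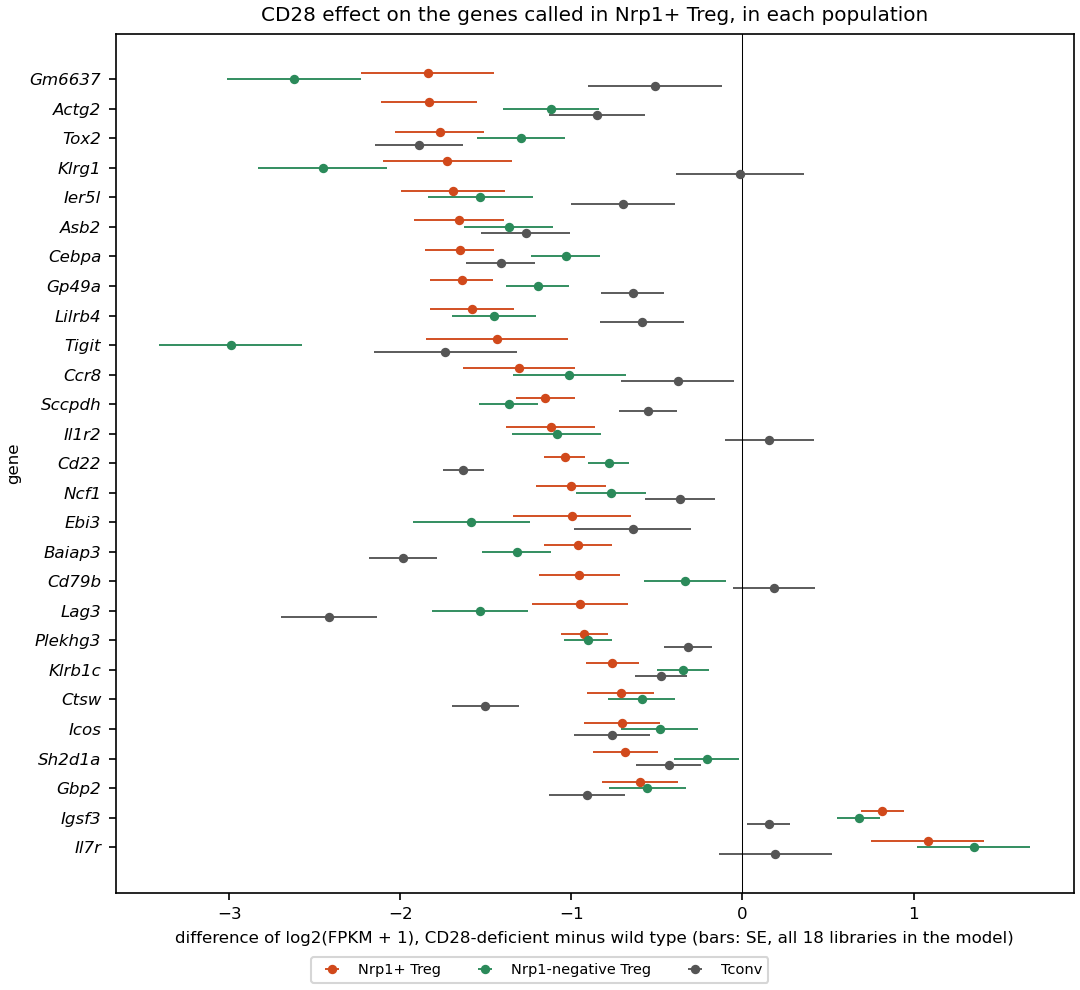
CD28 effect (difference of log2(FPKM + 1), CD28-deficient minus wild type, with SE from the model of all 18 libraries) on the 27 called genes other than microRNA loci, in Nrp1+ Treg, Nrp1-negative Treg and Tconv. All 25 genes that fell in Nrp1+ Treg lie below 0 in Nrp1-negative Treg and 23 of them in Tconv, where 1 CD28-deficient library carries Treg transcripts.

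The difference between the CD28 effects was tested directly. With all 18 libraries, none of the 25 genes differed between Nrp1+ and Nrp1-negative Treg by limma, where 3 of 12265 genes were called (0.0245%), and 2 of the 25, Cebpa and Tigit, had an unadjusted p under 0.05 (1.47% of all genes). Tigit was called in the 15-library model, where 4 genes were called (0.0328%), with an effect in Nrp1+ Treg that was 1.68 ± 0.22 less negative (adjusted p = 0.0182). Without CD28-deficient Tconv replicate 3 alone, limma called 0 of the 25 there (0.0327% of all genes were called), and 4 of the 25 had an unadjusted p under 0.05. With all 18 libraries none of the 25 differed between Nrp1+ Treg and Tconv either, where 15 genes were called (0.122%), and 15 of the 25 had an unadjusted p under 0.05 (2.18% of all genes). Without CD28-deficient Tconv replicate 3, Lag3 was called (0.294% of all genes were), with an effect 1.84 ± 0.32 less negative in Nrp1+ Treg (adjusted p = 0.0214). The 15-library model called Lag3 (1.62 ± 0.27, adjusted p = 0.0189) and Klrg1 (-1.30 ± 0.24, adjusted p = 0.0320) beside 0.525% of all genes, the effect on Lag3 being more negative in Tconv and that on Klrg1 more negative in Nrp1+ Treg. Klrg1 averaged 0.813 FPKM in wild-type Tconv, which leaves little room to fall there. Its called difference therefore does not show that its dependence on CD28 differs. A p that misses the threshold does not show that the effects are alike. Among the genes called for the difference to Tconv, Ccl5, a chemokine of cytotoxic and effector T cells, was at 14.7, 19.1 and 13.7 FPKM in the CD28-deficient libraries and 42.9, 28.7 and 27.5 FPKM in the wild-type libraries in Nrp1+ Treg (difference -0.9996 ± 0.20, adjusted p = 0.15). Its mean was 4.88 FPKM in CD28-deficient Tconv and 198 FPKM in wild-type Tconv. The other genes called for these differences are given in the closing section, some by their difference without group means.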

How the data were processed

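RNA was sequenced as single reads of 50 nt from total RNA, with NEBNext Ultra libraries per the labels' protocols. Listed in the submitters' processing notes are Trimmomatic 1, TopHat2 2.0.11 and Cufflinks, with the build GRCm38. The deposited values were taken as FPKM computed by the authors, 1 for each of 26665 gene symbols; the unit was inferred from Cufflinks and from the values. The strand setting and the annotation are not given in the sources used here. Since read depth is unknown, no counting interval or floor was computed, and with 3 libraries a group an exact permutation test of a single gene could not go below 0.1.

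The values were transformed as log2(FPKM + 1). A gene entered the fit if 3 or more of the 6 libraries had it at 1 FPKM or above, and the fit was made with limma 3.58.1 in R 4.3.3, with a variance trend (4 residual degrees of freedom, prior 3.12 in the median). Tests were two-sided with Benjamini-Hochberg adjustment over all 11728 genes, and genes under 0.05 were called. Differences of CD28 effects used all 18 libraries and 12265 genes. The 34 gene lists (706 entries, 701 of them in the files), the compared libraries and the tests were chosen with earlier results of these data known. Named genes are 12 set genes, called genes (up to 20 each way, without unnamed models, receptor segments and small RNA), list members (each called one and up to 6 by p) and up to 5 differences each way; Gm6637, Ctsw, the microRNA loci and the differences beyond 5 were named after their values were seen, and the fits without CD28-deficient Tconv replicate 3 and the list without Gp49a were also chosen then. Alternatives were another pseudocount, no filter, no trend, 2 other scalings, library weights, a replicate block, more libraries in the model and leaving out each library. Simulated data with known changes gave 80% recovery at a log2 size of 1 and 98% at 2, with 7 false calls among 11621 genes. The changes were planted only in genes of higher expression, with independent noise and no library that stands apart. These rates therefore do not carry over to called genes of low FPKM or to the effect of a library that stands apart. Positions are from GENCODE vM21 on GRCm38. A few genes that the naming rule takes are not reported here.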

Additional observations from a re-analysis of the deposited data

Results flagged for a closer look

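These results stand out because the CD28 effect itself differed between 2 populations when that difference was tested with limma in all 18 libraries. Values are means ± SD over 3 libraries, CD28-deficient first, and a difference is the CD28 effect in Nrp1+ Treg minus that in the other population, with its SE.

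Against Nrp1-negative Treg, 3 genes differed. Miat, a long non-coding RNA, was at 0.0343 ± 0.0438 against 0.0850 ± 0.0494 FPKM in Nrp1+ Treg and 0.464 ± 0.199 against 3.46 ± 0.287 FPKM in Nrp1-negative Treg, a difference of effects of 1.54 ± 0.16 (adjusted p = 0.000195). Serpina3f, a serine protease inhibitor, was at 1.28 ± 0.0396 against 1.59 ± 0.314 FPKM in Nrp1+ Treg and 1.06 ± 0.254 against 6.52 ± 1.34 FPKM in Nrp1-negative Treg, a difference of effects of 1.68 ± 0.22 (adjusted p = 0.0033). Miat was under 1 FPKM in all 6 Nrp1+ Treg libraries and was not tested there, so its level leaves no room for an effect in Nrp1+ Treg, and the difference does not show that its dependence on CD28 differs. Serpina3f was tested in both, and its wild-type level in Nrp1+ Treg was also low. Mir1247 was listed above 0 in the 3 CD28-deficient Nrp1+ Treg libraries only, and its difference of 5.08 was the same against either population.

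Against Tconv, 15 genes differed, all with the more positive effect in Nrp1+ Treg. Of the 15, Gzmk, Il21, Sostdc1 and Smtn were under 1 FPKM in all 6 Nrp1+ Treg libraries, so their differences restate that they are low there. Genes of type 1 and cytotoxic T cells were among the 15. Tbx21, which encodes the type 1 factor T-bet, was at 2.76 ± 0.346 against 3.41 ± 0.539 FPKM in Nrp1+ Treg and 0.697 ± 0.311 against 5.88 ± 1.76 FPKM in Tconv (difference 1.78 ± 0.31, adjusted p = 0.0315). Cxcr3, a chemokine receptor under T-bet, was at 35.2 ± 1.17 against 38.1 ± 5.78 FPKM in Nrp1+ Treg and 4.65 ± 4.24 against 35.0 ± 7.67 FPKM in Tconv (difference 2.80 ± 0.50, adjusted p = 0.0378). Ccl5 was at 15.8 ± 2.89 against 33.0 ± 8.57 FPKM in Nrp1+ Treg and 4.88 ± 2.33 against 198 ± 160.0 FPKM in Tconv (difference 3.85 ± 0.64, adjusted p = 0.0237). The wild-type Tconv libraries varied widely. Nkg7, a cytotoxic granule protein, was at 32.9 ± 4.92 against 24.2 ± 6.46 FPKM in Nrp1+ Treg and 4.31 ± 4.06 against 36.7 ± 15.8 FPKM in Tconv (difference 3.46 ± 0.59, adjusted p = 0.0247). Gzmk, a granzyme, was at 0 ± 0 against 0.0669 ± 0.116 FPKM in Nrp1+ Treg and 0.0810 ± 0.0785 against 5.72 ± 3.496 FPKM in Tconv (difference 2.43 ± 0.37, adjusted p = 0.0136). Il21 and Sostdc1, genes of follicular helper T cells, differed by 1.27 ± 0.19 and 1.36 ± 0.21, with the low level in Nrp1+ Treg given above.

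Casp1, the inflammatory caspase, was at 15.8 ± 3.05 against 22.7 ± 2.56 FPKM in Nrp1+ Treg and 1.04 ± 0.706 against 9.10 ± 0.838 FPKM in Tconv (difference 1.85 ± 0.34, adjusted p = 0.0428). Myo1f, an unconventional myosin of leukocytes, was at 9.61 ± 1.42 against 11.5 ± 1.93 FPKM in Nrp1+ Treg and 1.07 ± 0.629 against 11.1 ± 2.73 FPKM in Tconv (difference 2.33 ± 0.33, adjusted p = 0.00924). Gpm6b was at 6.78 ± 0.247 against 6.53 ± 0.235 FPKM in Nrp1+ Treg and 0.917 ± 0.564 against 6.13 ± 1.35 FPKM in Tconv (difference 1.96 ± 0.32, adjusted p = 0.0218). These 3 genes had their lowest means in CD28-deficient Tconv. Smtn, Itga7, Samd3 and Stfa3 differed by 1.63 ± 0.21, 1.22 ± 0.17, 1.33 ± 0.24 and 2.16 ± 0.36. The effects on Itga7, Samd3 and Stfa3 were 0.47, 0.57 and 1.20 in Nrp1+ Treg and -0.75, -0.77 and -0.96 in Tconv. In wild-type Nrp1+ Treg the means of Samd3 and Stfa3 were 0.610 and 0.490 FPKM. Mir1247 again differed by 5.08. CD28-deficient Tconv replicate 3 carries Treg transcripts, and without it 36 genes were called against Tconv, all 15 among them. CD28-deficient Nrp1+ Treg replicate 3 carries Tconv transcripts, and without it 7 genes were called against Tconv and 2 against Nrp1-negative Treg. Without CD28-deficient Nrp1+ Treg replicate 2, limma called 0 genes against Tconv, with 220 genes at an unadjusted p under 0.05.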

How the results depend on the processing

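All 29 called genes kept their direction under every alternative in which they could be fitted, but the count of calls moved widely. It was 24 with a pseudocount of 0.1, 28 without the variance trend, 28 after quantile normalization and 25 with all 18 libraries in the model, of which 24, 24, 21 and 12 were among the 29. It was 3 without a filter on low values and 9 with small RNA left out of the scaling. With 15 libraries in the model it was 130, all 29 among them. Library weights by limma's default method gave 1008 calls without reaching the method's convergence tolerance. The gene-by-gene method, chosen after that count was seen, gave 219. Leaving out each library in turn gave 0 to 41 calls: 11 without CD28-deficient replicate 1, 0 without 2 and 1 without 3, and 41, 7 and 4 without wild-type replicates 1, 2 and 3. The cause of these changes was not tested. Deviations from the group means correlated at 0.173, 0.04 and 0.24 between CD28-deficient and wild-type libraries of equal replicate number. Between libraries of unequal number they correlated at -0.231 to 0.0677. Whether equal numbers mark paired libraries was not tested. A replicate block in the model gave 10 calls, all among the 29.

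For the difference to Nrp1-negative Treg, 3 genes became 1 with a pseudocount of 0.1 and 7 without a filter, and 2 to 4 without single libraries; the replicate block gave 3. For the difference to Tconv, 15 genes became 3 with a pseudocount of 0.1, 26 without a filter, 8 with small RNA left out of the scaling, 64 with 15 libraries in the model (11 of the 15 genes among them) and 22 with the replicate block. Leaving out single libraries gave 0 to 36 there, with 0 and 2 without CD28-deficient Nrp1+ Treg replicates 2 and 1, 7 without replicate 3, and 36 without CD28-deficient Tconv replicate 3.

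With small RNA left out of the scaling, the differences of Nrp1, Ikzf2 and Bcl2, none of them called, turned to 0.051, 0.026 and 0.041. The median change of all genes was 0.08 in that fit. Without single libraries the differences of these genes ran from -0.24 to 0.049 (Nrp1), -0.36 to 0.046 (Ikzf2) and -0.36 to 0.053 (Bcl2). Depth is unknown, so the limit it sets on low genes cannot be given.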
